A study of Homo sapiens with 18 samples.

Results

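The regions described here carried a CUT&Tag peak with an antibody against ARID1A in both libraries of ARID1A-knockdown cells and in neither library of wild-type cells. They were found by merging the peaks of those 4 libraries on chromosomes 1 to 22 and X. Of 132281 merged regions, 897 met this rule (0.678%). The regions were chosen by the measured presence or absence of a peak in these 4 libraries, so the absence of wild-type peaks from the 897 regions is their definition and not a finding.

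CUT&Tag uses an antibody to bring a transposase to chromatin, where it inserts sequencing adapters beside the bound protein. The cells were A549, an established human lung cancer line, grown as wild type (WT), with YTHDF1 knocked out (YTHDF1-KO) or with ARID1A knocked down (siARID1A). Each of the 3 conditions was profiled with an anti-ARID1A and an anti-YTHDF1 antibody in 2 replicates, which gave 12 peak lists. The labels do not say whether replicates were separate cultures or whether the knockout was 1 clone, so the spread between replicates may be technical. Normal IgG libraries (6 samples) and a further condition that the design mentions, both perturbations together, were not analysed here.

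ARID1A is a large subunit of the BAF form of the SWI/SNF complex, which uses ATP to slide or evict nucleosomes and keeps enhancers and promoters accessible. It binds DNA with little sequence preference and is often lost through mutation in epithelial cancers, and its close relative ARID1B can take its place in the complex. YTHDF1 is best known as a cytoplasmic reader of N6-methyladenosine in RNA, and the series profiles it on chromatin in relation to R-loops. A knockdown lowers a protein without removing its gene. Peaks over the ARID1A gene therefore do not check it: the 2 siARID1A anti-ARID1A lists held 5 and 3 peaks there and the WT lists held 5 and 6, and none of the 897 regions lay in the gene. Neither did any lie in the YTHDF1 gene.

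Most of the 897 regions lay away from gene starts, but 59 overlapped a RefSeq promoter window, taken as 250 bases before to 50 bases after a start site. The 100 bases just upstream of 7 of these starts are shown from RefSeq (GRCh38.p14), 5′ to 3′ on the gene's strand, with every CpG in capitals. All 100 bases lay inside the region in each case. These 7 were chosen after their values were seen, to show the range from CpG-dense to CpG-poor promoters among regions of high and moderate rank.
BCL7A (chr12:122021784-122021883, plus strand): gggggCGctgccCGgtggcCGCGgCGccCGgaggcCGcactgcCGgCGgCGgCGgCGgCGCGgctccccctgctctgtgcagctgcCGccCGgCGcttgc
C21orf91 (chr21:17819357-17819456, minus strand): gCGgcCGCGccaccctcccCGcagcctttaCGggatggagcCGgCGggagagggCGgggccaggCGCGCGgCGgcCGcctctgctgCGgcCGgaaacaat
ITGA4 (chr2:181457286-181457385, plus strand): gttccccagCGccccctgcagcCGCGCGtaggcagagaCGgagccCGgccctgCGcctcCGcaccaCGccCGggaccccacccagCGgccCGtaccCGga
ZNF800 (chr7:127392709-127392808, minus strand): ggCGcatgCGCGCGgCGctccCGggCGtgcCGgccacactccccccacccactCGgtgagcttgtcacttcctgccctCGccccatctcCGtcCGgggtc
KCNQ5 (chr6:72621964-72622063, plus strand): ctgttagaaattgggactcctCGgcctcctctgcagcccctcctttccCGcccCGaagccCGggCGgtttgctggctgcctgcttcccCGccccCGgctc
GOLGA6L7 (chr15:28848645-28848744, minus strand): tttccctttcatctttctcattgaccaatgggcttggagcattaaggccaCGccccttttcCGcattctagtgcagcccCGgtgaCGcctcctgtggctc
TRPC6 (chr11:101584008-101584107, minus strand): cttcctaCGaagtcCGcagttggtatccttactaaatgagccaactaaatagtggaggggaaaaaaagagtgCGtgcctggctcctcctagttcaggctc

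The BCL7A stretch held 17 CpGs at 86% G and C, the C21orf91 stretch 15 at 78%, the ITGA4 stretch 13 at 79% and the ZNF800 stretch 12 at 75%. KCNQ5 held 7 CpGs at 69%. GOLGA6L7 held 4 at 55% and TRPC6 held 3 at 49%. BCL7A encodes a BAF subunit, ITGA4 the alpha chain of an integrin by which leukocytes adhere, and ZNF800 a zinc finger protein. KCNQ5 encodes a voltage-gated potassium channel subunit and TRPC6 a calcium-permeable cation channel, and GOLGA6L7 belongs to a duplicated golgin family whose near-identical copies make the placing of reads uncertain.

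The 12 lists differed in size and in the weakest peak they admitted, and these facts touch every count below. The WT anti-ARID1A lists held 92343 and 100729 peaks covering 228 and 266 Mb. The siARID1A lists held 71271 and 79193 peaks covering 99.0 and 128 Mb, and the YTHDF1-KO lists 99861 and 106882. Peaks of the 6 anti-YTHDF1 lists numbered 40562 to 59632. In every list the authors' highest signal of each peak was a whole multiple of a single step, so heights are given here in steps and a peak's total signal in steps times base pairs. The smallest total that entered a list was 2530 and 2700 in the WT anti-ARID1A lists against 1382 and 1595 in the siARID1A lists. The peak over the mitochondrial genome took 19.3% and 18.1% of the listed signal in the WT anti-ARID1A lists and 49.5% and 44.9% in the siARID1A lists. The sequencing depth is unknown, and the part of these differences in the results was not tested.

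The siARID1A-only regions were few and weak, though the lists were of unequal length. With lists cut to equal length their number was 1335, and some other settings lowered it. The opposite pattern, both WT and neither siARID1A list, took 15950 regions (12.1%), and 25800 regions were held by all 4 lists. In the siARID1A lists the 897 regions had a median percentile of total signal of 31.8 in replicate 1 and 30.2 in replicate 2, where 0 is the weakest and 100 the strongest peak of that list. Their 5th to 95th percentiles ran from 3.98 to 65.8 and from 2.75 to 67.4, and the strongest single regions reached 92.7 and 86.0. The median highest signal was 4 steps in both replicates, below the median of 5 over each whole list. The median total was 1789 and 2063 steps times base pairs.

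These totals can be set against the weakest peaks that the WT lists contained. In 577 of the 897 regions (64.3%) both siARID1A totals lay under 2530, the smaller of the 2 WT minimums. In 27 regions (3.01%) both totals reached 2700, the larger one, and the other 293 (32.7%) met neither condition. In steps, a siARID1A peak of the usual size in this set was thus smaller than any peak of either WT list, and how many reads stand behind a step is not known.

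**Figure D1:**
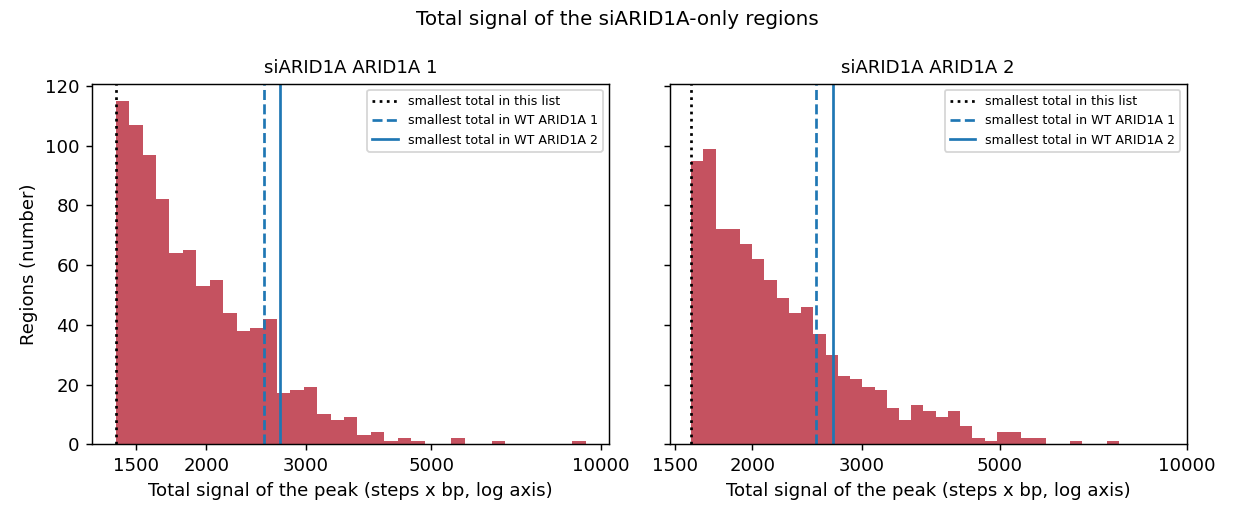
Total signal of the siARID1A anti-ARID1A peaks in the 897 regions (steps times base pairs, log axis) against the number of regions, by replicate; the dotted line is the smallest total of that list and the blue lines those of the WT anti-ARID1A lists. Most regions lie left of the blue lines, and 577 do so in both replicates.

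The regions were narrower than those shared with WT, and most had a WT peak within a few kb. Their median width was 1438 bp, somewhat above the median peak of the siARID1A lists themselves (1104 and 1243 bp), with 1008 and 2131 bp at the 10th and 90th percentile. Regions of all 4 lists had a median of 4435 bp and regions of 1 siARID1A list and no WT list 1011 bp. The nearest WT anti-ARID1A peak was a median of 2205 bp away (quartiles 722 and 7678 bp), against 3984 bp for regions of 1 siARID1A list and no WT list. It lay within 1 kb for 273 regions (30.4%), within 5 kb for 609 (67.9%) and beyond 100 kb for 42 (4.68%).

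At the edge of the rule, 38 regions lay within 100 bp of a WT peak and so just missed being shared. On the other side, 1911 regions were held by both siARID1A lists and 1 WT list, with a median width of 2166 bp. In 12 of those the WT and siARID1A peaks overlapped by 100 bp or less, and the median overlap was 1153 bp. A further 20915 regions were held by 1 siARID1A list and no WT list.

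Among the 897, 484 regions (54.0%, Wilson 95% interval 50.7 to 57.2) overlapped a protein-coding gene, 120 only another kind of gene and 293 no gene. Over all merged regions the first share was 57.8%, and over those 1 to 2 kb wide 54.2%, against 55.3% for the 687 siARID1A-only regions of that width. Intervals on shares cover counting error only. RefSeq positions without exons were used, so exon and intron were not told apart.

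The 59 promoter regions made up 6.81% (Wilson 95% interval 5.31 to 8.68) of the 867 regions on chromosomes whose start sites were used, against 11.1% of all merged regions. At 1 to 2 kb of width the order was the other way, with 6.95% of siARID1A-only and 5.07% of all regions. Among regions of 1 siARID1A list and no WT list the share was 2.34%, among WT-only regions 4.86% and among regions of all 4 lists 38.1%. Both the siARID1A-only and the WT-only set thus held promoters far less often than the regions shared by all 4 lists, without matching for width. The shared regions were wider, with a median of 4435 bp against 1438 bp (siARID1A-only) and 2104 bp (WT-only). Their share at 1 to 2 kb of width was not computed, so the part of width in this difference is not known.

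Sequence at these promoters resembled that of the shared regions in composition. Of the 72 start sites in siARID1A-only regions (66 genes), the 250 bases upstream had a median of 64.4% G and C and a CpG observed-to-expected ratio of 0.779. The 16034 start sites in regions of all 4 lists had medians of 65.2% and 0.784, the 922 in WT-only regions 57.2% and 0.464, and the 13143 outside all merged regions 45.2% and 0.241. Over 55% G and C with a ratio over 0.6 was found for 48 of the 72 (66.7%), for 66.0% in regions of all 4 lists and for 34.5% in WT-only regions. No test was made, since start sites of 1 region are not independent.

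The motifs of 5 factor families were searched on both strands of the same 250 bases. The GC box CCCGCC, bound by SP and KLF factors, was present upstream of 46 of the 72 starts (63.9%), against 42.6% of all 34961 starts and 63.9% of those in regions of all 4 lists. The AP-1 motif TGANTCA was at 0 of 72, against 6.54% of all starts and 4.68% of those in regions of all 4 lists. The NFY motif GATTGG was at 9 (12.5%, all 14.1%), the TEAD motif GGAATG at 8 (11.1%, all 11.9%) and the forkhead motif TGTTTAC at 2 (2.78%, all 2.98%). A match to such letters is a description of the window and not a binding site.

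The promoter regions differed from the others in where WT peaks lay. The nearest WT anti-ARID1A peak was a median of 9402 bp away for the 59, and 27 of them (45.8%) were over 20 kb from one. For the other 838 the median was 2100.5 bp, and 98 (11.7%) were over 20 kb away. The 59 also ranked higher in the siARID1A lists, with a median mean percentile of 41.5 against 30.7. Distance and rank come from the lists of the rule and are given without a test, and the 838 include regions on a chromosome whose start sites were not used here.

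**Figure D2:**
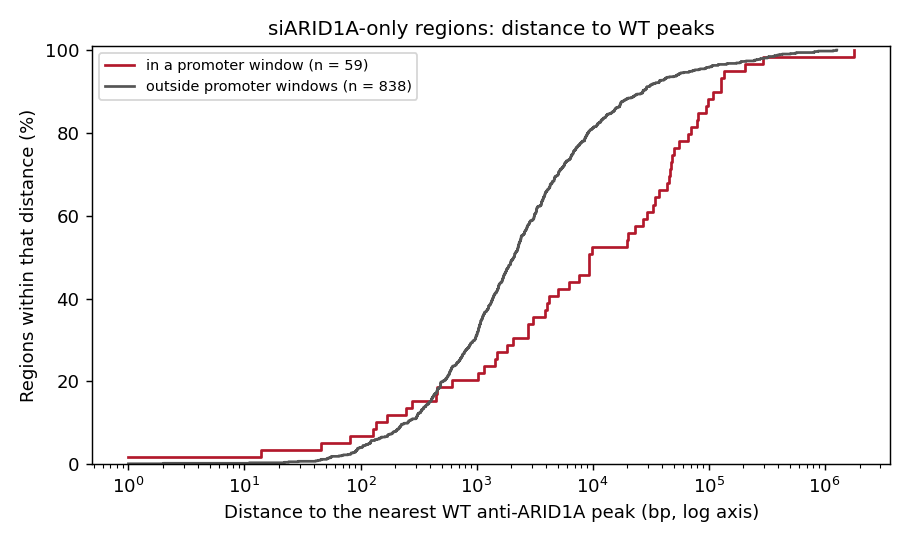
Cumulative share of siARID1A-only regions (%) by distance to the nearest WT anti-ARID1A peak (bp, log axis), for the 59 regions in a promoter window (red) and the other 838 (grey). From about 1 to 100 kb the red curve lies to the right, with 45.8% of promoter regions over 20 kb from a WT peak against 11.7% of the others.

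Single promoter regions show what lies behind these medians. The ITGA4 region (chr2:181456788-181458207) stood at the 72.7 and 54.9 percentile of the siARID1A anti-ARID1A lists, its nearest WT peak was 127616 bp away, and none of the other 8 lists held it. The ERBB4 region (chr2:212537358-212538780), at a receptor tyrosine kinase gene, stood at 50.8 and 47.7, also 66029 bp from a WT peak and in no other list. The TRPC6 region (chr11:101582364-101584221) stood at 69.9 and 35.2 and 108709 bp from a WT peak, but both YTHDF1-KO anti-ARID1A lists held it at 66.7 and 60.1. The BCL7A region (chr12:122020747-122022248) stood at 33.9 and 55.1 in the siARID1A lists and at 61.5 and 67.1 in the YTHDF1-KO lists, and a WT peak lay 280 bp away. The 4 promoters thus range from isolated peaks of the knockdown lists to peaks that the knockout lists carried as well. ITGA4 and ERBB4 are both on chromosome 2. There both YTHDF1-KO anti-ARID1A lists held 7.14% of the siARID1A-only regions and 24.7% of all merged regions. On chromosomes 11 (TRPC6) and 12 (BCL7A) they held 31.25% and 26.8% of the siARID1A-only regions, and 43.6% and 41.5% of all.

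The 8 lists that the rule did not use show how far the regions recurred. The YTHDF1-KO anti-ARID1A lists held 45.9% (replicate 1) and 42.8% (replicate 2) of the 897 regions, a mean of 44.4 ± 2.21% (SD, n = 2). Both held 221 regions (24.6%, Wilson 95% interval 21.9 to 27.6; 40.4% of all merged regions), exactly 1 held 354 (39.5%, all 23.9%) and neither held 322 (35.9%, all 35.8%). The mean share was 52.3% over all merged regions, 59.7% over WT-only regions, 71.6% over regions of both siARID1A lists and 1 WT list, and 19.8% over regions of 1 siARID1A list and no WT list. Among regions 1 to 2 kb wide it was 43.1% for the siARID1A-only set and 35.9% for all. Both YTHDF1-KO and neither WT list held 1.47% of all merged regions. That comparison shares the WT lists with the rule, so no test was made of it.

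Regions of higher rank recurred more often. Split into 3 groups of 299 by mean percentile in the siARID1A lists, both YTHDF1-KO anti-ARID1A lists held 18.1% of the lowest group, 25.1% of the middle and 30.8% of the highest. They held 14 of the 27 regions whose totals reached the WT minimums (51.9%) and 124 of the 577 whose totals lay under them (21.5%). Nearness to a WT peak also went with recurrence. Both lists held 35.2% of regions within 1 kb of one, 19.6% of those 1 to 5 kb away and 20.5% of those farther. An overlap of 1 bp counted as held, and median peak widths were 1650 and 1523 bp in the YTHDF1-KO lists. In the siARID1A lists they were 1104 and 1243 bp. How much of a region the YTHDF1-KO peaks covered was not compared by distance.

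With the anti-YTHDF1 antibody, the siARID1A lists held 19.6% and 18.7% of the 897 regions, the WT lists 16.8% and 10.6% and the YTHDF1-KO lists 14.6% and 11.6%. Both siARID1A values were above all 4 others, and the WT and YTHDF1-KO values overlapped. The means were 19.2 ± 0.631% in siARID1A, 13.7 ± 4.41% in WT and 13.1 ± 2.13% in YTHDF1-KO (SD, n = 2 each). The siARID1A mean was higher than WT by 5.46 percentage points, or 1.40-fold. The exact two-sided permutation p was 0.333, the smallest that 2 lists against 2 can give. On the chromosomes used, the anti-YTHDF1 lists held 59632 and 57354 peaks in siARID1A, 57764 and 40562 in WT and 50774 and 46225 in YTHDF1-KO. With lists cut to equal length, which changed the set to 1335 regions, the siARID1A mean was higher than WT by 3.75 points. The difference over all merged regions was not computed under that cut. The YTHDF1-KO mean differed from WT by -0.613 points (exact permutation p = 1), and that sign did not hold under other processing.

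The same difference over other regions was of a similar sign and often smaller. Over all merged regions the siARID1A mean exceeded WT by 2.65 points or 1.13-fold (22.4% against 19.8%; exact permutation p = 1). Over WT-only regions it exceeded WT by 0.762 points (1.06-fold), over regions of 1 siARID1A list and no WT list by 1.64 points (1.31-fold), over regions of both siARID1A lists and 1 WT list by 8.40 points (1.39-fold), and over regions of all 4 lists by 6.84 points (1.12-fold). Expressed within each list as the share of the 897 held over the share of all merged regions held, the values were 0.706 and 0.674 in WT, 0.793 and 0.662 in YTHDF1-KO and 0.883 and 0.828 in siARID1A. The siARID1A values were the highest of the 6 (difference from WT 0.165, exact permutation p = 0.333, again the smallest possible). The difference is therefore larger than the gap between replicates on this scale. With 2 lists a group it could not pass a threshold of 0.05. The regions were also chosen by the same contrast, siARID1A against WT, with the other antibody. The comparison is thus not independent of the rule, and signal shared by both antibodies was not separated. Among regions 1 to 2 kb wide, the siARID1A anti-YTHDF1 lists held a mean of 17.3% of the siARID1A-only set and 9.88% of all. The WT lists held 11.9% and 8.38%, and the YTHDF1-KO lists 11.1% and 7.81%.

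**Figure D3:**
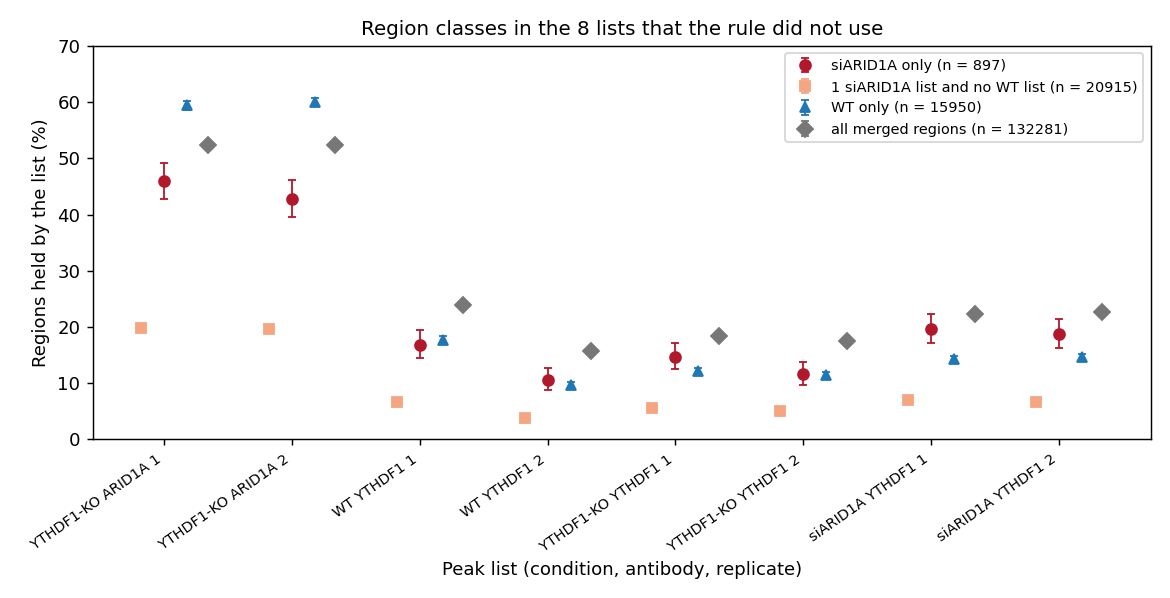
Share of regions held (%) by each of the 8 peak lists outside the rule, for the 897 siARID1A-only regions (red circles) and 3 other sets, with 95% Wilson intervals. The siARID1A-only regions lie between 42.8% and 45.9% in the YTHDF1-KO anti-ARID1A lists and reach 18.7% and 19.6% in the siARID1A anti-YTHDF1 lists, above the 10.6% to 16.8% of the other anti-YTHDF1 lists.

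The pattern of the rule rarely repeated with the second antibody. Both siARID1A and neither WT anti-YTHDF1 list held 23 of the 897 regions (2.56%), against 1.99% of all merged regions, a share near the background. The opposite pattern took 6 regions (0.669%, all 1.1%). Both YTHDF1-KO and neither WT list held 16 (1.78%, all 1.15%), and both WT and neither YTHDF1-KO list 9 (1.00%, all 1.76%). No anti-YTHDF1 list held 466 of the regions (52.0%, all 51.0%), and all 6 held 11 (1.23%, all 5.01%). Among regions 1 to 2 kb wide, no anti-YTHDF1 list held 54.3% of the siARID1A-only set and 66.3% of all. At that width all 6 held 0.728% of the set and 0.304% of all, so the order of the last share depended on width.

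Of the 23 regions with the pattern for both antibodies, 9 lay in a protein-coding gene, against 57.8% of all merged regions. YTHDF1-KO anti-ARID1A lists, 1 or both, held 20 of them. Over all merged regions both held 40.4% and exactly 1 held 23.9%. No YTHDF1-KO list of either antibody held 3, and that share was not computed over all regions. These small counts were not tested. The region of highest rank lay in PARD3 (chr10:34438752-34440025), which encodes a cell polarity scaffold. It stood at 60.3 and 69.2 in the siARID1A anti-ARID1A lists and at 29.1 and 32.3 in the siARID1A anti-YTHDF1 lists, and no WT or YTHDF1-KO list held it. The region in ERN1 (chr17:64054416-64056226), a sensor of unfolded protein in the endoplasmic reticulum, stood at 47.2 and 54.6 with anti-ARID1A and 48.8 and 75.6 with anti-YTHDF1 in siARID1A. Single YTHDF1-KO lists held it as well, at 64.7 and 38.4. The region in GALNT2 (chr1:230120433-230121721), a glycosyltransferase that starts mucin-type O-glycans, stood at 53.8 and 59.7 with anti-ARID1A but only at 7.24 and 7.67 with anti-YTHDF1. The set also held a region at the RXRB and SLC39A7 start sites, one in ZNF444 and one 2349 bp from KLK14.

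The number of other lists that held a region ran from 0 to 8. None of the other 8 lists held 225 regions (25.1%), a share near the 27.2% of all merged regions and below the 38.2% of those 1 to 2 kb wide. Of the rest, 237 were held by 1 of them, 185 by 2, 121 by 3, 60 by 4 and 28 by 5. A further 24 were held by 6, 9 by 7 and 8 (0.892%) by all 8, which held 4.94% of all merged regions. Among regions 1 to 2 kb wide, all 8 held 0.437% of the siARID1A-only set and 0.239% of all. Of the 8 in every list, 4 lay within 15.645 kb of chromosome 20, from chr20:31060291 to chr20:31075935. The other 4 were chr1:143255256-143256028, chr12:37237214-37238659, chr16:38279049-38280077 and, in TBC1D3C, chr17:38061333-38063457. These places lie next to centromeres or in duplicated sequence, where reads place poorly in general. Only the WT anti-ARID1A lists lacked a peak in them, and for the chromosome 20 region of highest rank a WT peak lay 226 bp away.

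Each of the 12 regions of highest mean percentile was held by 2 or more of the other 8 lists. The first was chr20:31067851-31070230, at 83.6 and 75.9 in the siARID1A lists and between 59.1 and 94.2 in the other 8. Another, chr12:37237214-37238659, stood at 62.8 and 82.6, and between 69.8 and 97.5 in the others. Its highest signal was 10 and 12 steps, where the set's median was 4. Others were in genes. The region in MAPT (chr17:45918588-45921298), which encodes the microtubule protein tau, stood at 71.9 and 77.4, with 1 YTHDF1-KO anti-ARID1A list at 36.7, the WT anti-YTHDF1 lists at 66.8 and 14.6 and 1 YTHDF1-KO anti-YTHDF1 list at 83.3. The siARID1A anti-YTHDF1 lists did not hold it.

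Regions in URI1 and SLC13A3 were seen with anti-ARID1A alone. URI1 (chr19:29948136-29949873), a prefoldin-like chaperone gene, stood at 78.1 and 68.2 in siARID1A and 69.5 and 49.97 in YTHDF1-KO. SLC13A3 (chr20:46680376-46682669), a dicarboxylate transporter gene, stood at 65.4 and 75.9 in siARID1A and at 74.7 in each YTHDF1-KO list, and a WT peak lay 310 bp away. PTH1R (chr3:46883544-46885584), the parathyroid hormone receptor gene, stood at 61.1 and 73.4 in siARID1A and 83.2 and 52.0 in YTHDF1-KO, with anti-YTHDF1 peaks in both WT lists and 1 siARID1A list. A region 44600 bp from ADAMTS6 (chr5:65101204-65104137) stood at 71.0 and 77.2 in siARID1A and 63.0 and 55.6 in YTHDF1-KO, 37664 bp from any WT peak. In these 4 both YTHDF1-KO anti-ARID1A lists held the region as well, and for PTH1R a WT anti-ARID1A peak lay 207 bp away.

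Among regions that no other list held, the 5 of highest rank lay in PDE1A, at ITGA4, in the noncoding gene VSTM2B-DT, 32684 bp from CDCA7, and in TANK. PDE1A encodes a phosphodiesterase of cyclic nucleotides, and its region (chr2:182368010-182370379) stood at 59.0 and 70.7 and lay 845 bp from a WT peak. TANK, an adaptor of kinases that act in interferon induction, held a region (chr2:161146753-161148594) at 50.7 and 63.8. The VSTM2B-DT region (chr19:29431444-29434332) stood at 64.5 and 60.3 and the CDCA7 region (chr2:173401682-173403960) at 70.8 and 44.5. Of these 5 regions, 4 were on chromosome 2. On that chromosome both YTHDF1-KO anti-ARID1A lists held 24.7% of all merged regions, against 40.4% over all chromosomes used.

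**Figure D4:**
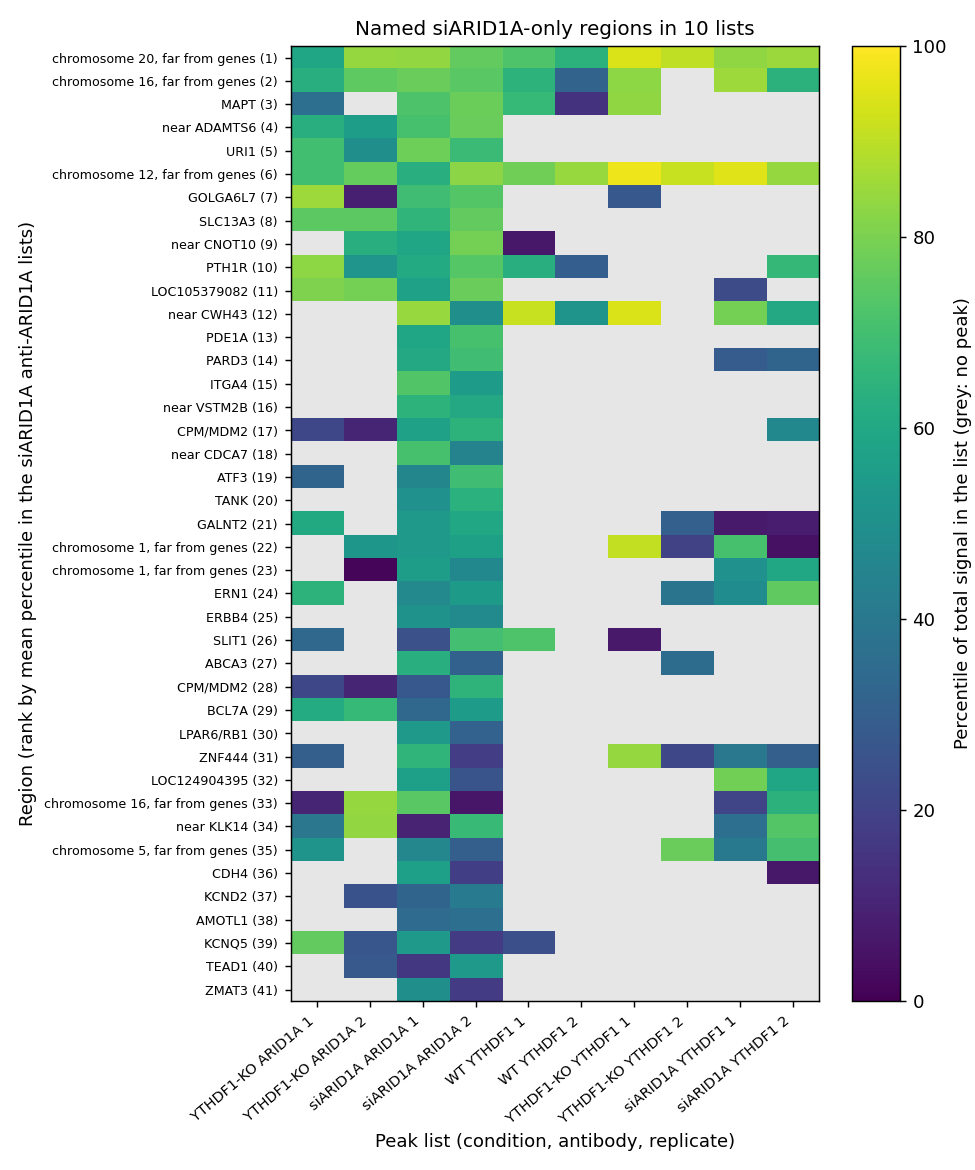
Percentile of total signal (colour, 0 to 100) of 41 named siARID1A-only regions in the 10 lists other than WT anti-ARID1A, with grey where the list holds no peak; far from genes means over 100 kb from the nearest gene. Rows are ordered by mean percentile in the siARID1A anti-ARID1A lists; the region chr12:37237214-37238659 (rank 6), 1078027 bp from the nearest gene, stands at 62.8 or above in all 10 columns, while ITGA4 and ERBB4 are coloured in 2.

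By gene, 510 of 19970 protein-coding genes (2.55%) had a siARID1A-only region in the body or within 1 kb, and 24 genes had 2 or more in the body. Genes with a region were long, with a median length of 70.8 kb against 24.2 kb over all, and a long gene has more room for a region. CACNA2D2, which encodes a calcium channel subunit, and ZNF536, which encodes a neural zinc finger repressor, had 3 each. The first CACNA2D2 region (chr3:50388208-50389461) stood at 33.4 and 11.5 in siARID1A and at 77.0 and 79.0 in the YTHDF1-KO anti-ARID1A lists, and a WT peak lay 82 bp away. The ZNF536 regions stood at 65.7 and 8.43, at 7.64 and 0.136 and at 7.73 and 54.4, so that each ranked under 10 in 1 or both lists.

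Lists of chromatin and transcription genes gave 1 or 2 genes each, to be read against the 2.55% of all genes. Of 30 SWI/SNF subunit genes 2 held one (BCL7A and SS18L1; 6.67%), of 22 AP-1 and ATF genes ATF3 (4.55%), and of 18 TEAD and YAP pathway genes AMOTL1 and TEAD1 (11.1%). The SS18L1 region (chr20:62143159-62143806) stood at 13.9 and 29.7 in siARID1A and at 87.3 and 35.1 in YTHDF1-KO. ATF3 encodes a stress-induced transcription factor, and its region (chr1:212579235-212581573) stood at 45.8 and 69.4, with 1 YTHDF1-KO anti-ARID1A list at 32.1 and a WT peak 878 bp away. TEAD1 and AMOTL1, a DNA-binding partner and a regulator of YAP, had regions at 16.3 and 54.3 and at 34.9 and 36.6. Of 510 zinc finger genes 11 held a region (2.16%).

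The cell cycle and p53 lists gave 2 genes each: CCND2 and RB1 of 34, and MDM2 and ZMAT3 of 21. MDM2, whose product drives p53 turnover, overlaps CPM in the annotation, and both neighbouring regions there (chr12:68844499-68846168 and chr12:68846818-68849303) are counted for both genes. They stood at 57.2 and 64.8 and at 27.4 and 65.2 in siARID1A, and the same peak of each YTHDF1-KO list, at 21.7 and 10.4, reached both. The RB1 region (chr13:48399844-48401496), which also overlaps LPAR6, stood at 54.3 and 31.5 and in no other list, 55139 bp from a WT peak. ZMAT3, a p53-induced RNA-binding protein gene, had a region at its start (chr3:179067852-179069364) at 49.7 and 17.7, also in no other list.

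Among lists of adhesion and neuronal genes, 2 of 25 integrin and matrix receptor genes held a region (ITGA4 and ITGA9). ABCA3, the lipid transporter of surfactant-producing alveolar cells, had its region (chr16:2316653-2318039) at 63.0 and 30.9. Of 59 synaptic adhesion and axon guidance genes 5 held one (CDH4, CNTNAP2, EFNA5, SLIT1 and TENM3), as did 5 of 50 neurotransmitter receptor and channel genes (GRIK4, KCND2, KCNQ3, KCNQ5 and RYR3). The median lengths of those 2 lists were 643 and 402 kb. The KCND2 region (chr7:120406461-120407599) was 325302 bp from any WT peak and stood at 32.1 and 41.5. The KCNQ5 promoter region (chr6:72621348-72622485) stood at 53.6 and 17.8, at 75.9 and 26.6 in YTHDF1-KO, and 444 bp from a WT peak.

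For the subjects named by the series, none of 29 R-loop processing genes and none of 22 m6A genes held a region. Of 44 nucleic acid sensing and interferon genes SAMHD1 did, an enzyme that degrades deoxynucleotides, with a region (chr20:36899611-36901183) at 16.2 and 42.3 in siARID1A and in no other list. None of 39 EMT and matrix genes, 28 NRF2 targets, 29 haematopoietic marker genes or 392 olfactory receptor genes held one. With 2.55% of all genes holding one, counts of 0 in lists of 22 to 39 genes are no result about those lists, and olfactory receptor genes are short, with a median of 2.94 kb.

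Across chromosomes the regions were unevenly spread. Chromosome 17 held 80 of the 897 (8.92%, against 6.08% of all merged regions), 49 of them beyond 40 Mb. Regions held by both siARID1A lists, with or without WT, had a similar share there, 8.36%. Chromosome 21 held 19 (2.12%, all 1.10%, both siARID1A lists 1.17%). Chromosome 9 held 21 (2.34%, all 4.68%, WT-only 7.25%) and chromosome 2 held 84 (9.36%, all 9.51%). These are shares of regions called in unequal lists, and copy number in A549 was not measured here.

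Recurrence in the other lists differed by chromosome too. Both YTHDF1-KO anti-ARID1A lists held 29 of the 80 regions on chromosome 17 (36.3%) but 6 of the 84 on chromosome 2 (7.14%). Over all merged regions the same shares were 55.3% and 24.7%, so chromosome 2 was low in the YTHDF1-KO lists whichever regions were taken. Of the chromosome 2 regions 46 were among the 225 that none of the other 8 lists held. That share was not computed over all merged regions of chromosome 2. Whether it is particular to the siARID1A-only regions is therefore not known. For the 49 regions beyond 40 Mb of chromosome 17, the mean share with anti-YTHDF1 was 33.7% in siARID1A (26.5% and 40.8%), 14.3% in WT (16.3% and 12.2%) and 20.4% in YTHDF1-KO (18.4% and 22.4%). Both siARID1A lists were above the other 4 there. That stretch was chosen after values were seen and is given without a test. The same shares over all 4483 merged regions there were not computed. Whether the difference is particular to the 49 regions is therefore not known.

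**Figure D5:**
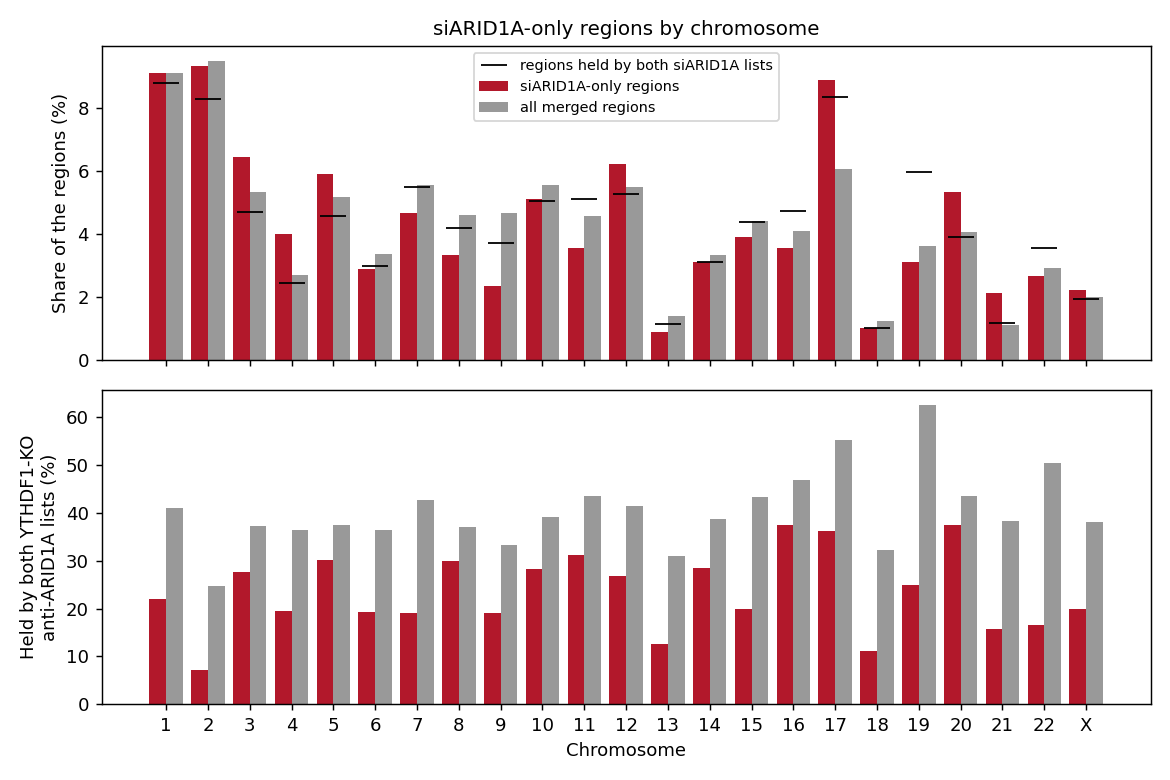
Upper panel, share of the 897 siARID1A-only regions (red) and of all 132281 merged regions (grey) on each chromosome (%), with a black mark for regions held by both siARID1A lists; lower panel, share of the regions on that chromosome held by both YTHDF1-KO anti-ARID1A lists (%). Chromosome 17 stands out above, with 8.92% against 6.08% (8.36% at the black mark), and chromosome 2 below, with 7.14% against 24.7%.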

How the data were processed

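Human A549 cells were profiled by CUT&Tag, and 12 peak lists, 1 per library, were used. The submitters' processing notes name SEACR 1.3 (a peak caller for CUT&Tag-like data), Bowtie2 2.4.2, deepTools 3.5.2, bedtools 2.30.0, SAMtools 1.9 and fastp 0.23.2, and the build hg38. Peak-calling settings, and any use of IgG there, were not given in the sources. For each peak the deposited lists give its position, total signal and highest signal, on a scale that the authors set for each library, so signal was ranked within a list. Between libraries, only totals in steps were set beside the smallest totals of the WT lists, and what a step stands for in reads is unknown. All highest values (100%) were whole multiples of 1 step per library (tolerance 0.01 step, or 0.01% of larger values).

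Peaks of the WT and siARID1A anti-ARID1A lists were merged, and a list held a region if a peak overlapped it by 1 bp or more. Groups came from the sample titles. Shares were compared over lists by exact two-sided permutation, since peak lists hold no counts for a model per region. Genes and promoters came from RefSeq GRCh38.p14 tables, and coordinates are 1-based GRCh38. Promoters were counted only on chromosomes with start sites in the table used. Replicate numbers did not pair the lists: deviations of same-numbered lists correlated between -0.0026 and -0.0005 over regions.

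The regions and the gene lists were chosen with earlier results of these data known. Named regions were the 12 of highest mean percentile in the siARID1A anti-ARID1A lists, up to 10 with the same pattern for anti-YTHDF1, up to 8 held by both YTHDF1-KO anti-ARID1A lists, 5 held by no other list, 15 at listed genes and the genes holding most regions; C21orf91, TRPC6, ZNF800, SS18L1, SAMHD1, RXRB and the regions held by all 8 other lists were named after their values were seen. The counts of 2 gene lists are not reported here. Python 3.11.15 with pandas 2.3.3, numpy 2.4.6 and SciPy 1.17.1 was used, and the scripts were tested on simulated lists.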

Additional observations from a re-analysis of the deposited data

How the results depend on the processing

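The higher share of the regions held with anti-YTHDF1 in siARID1A than in WT kept its direction in all 15 alternatives. In each of them the regions were still chosen by siARID1A against WT peaks. With single replicates left out the difference ran from 1.97 to 10.1 points, and no alternative could pass a threshold of 0.05. Some of the 15 could not change the difference. Leaving out a YTHDF1-KO replicate, or using the replicate block, keeps the same siARID1A and WT lists and returned 5.46 points by construction. The sign of YTHDF1-KO minus WT was not stable. It turned positive with the lowest 25% of each list left out (0.0804 points), with peaks within 1 kb merged (0.396), and for regions without a WT peak within 5 kb (2.08), and ran from -5.89 to 3.21 points with single replicates left out. The replicate numbers showed no pairing of the conditions within an antibody. With the replicate block the values were again 5.46 (exact permutation p = 0.5) and -0.613 points (p = 1). With WT and YTHDF1-KO lists together as controls the siARID1A excess was 5.77 points (exact permutation p = 0.133).

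The number of regions rested on having 2 lists on each side. It also rose to 1335 with lists cut to equal length, and fell under other settings given below. It ran from 897 to 12665 with single replicates left out: 12665 and 10387 without siARID1A replicate 1 or 2, and 1696 and 2477 without WT replicate 1 or 2. Over the same omissions the share held by both YTHDF1-KO anti-ARID1A lists ran from 9.53% to 45.9% (the highest is from the single YTHDF1-KO list then left; with both lists it reached 45.8%), the median width from 948 to 1492 bp, the median distance to a WT peak from 2205 to 3825 bp, the share in protein-coding genes from 52.3% to 57.5%, the median percentile from 21.6 to 36.3, and the number with the pattern for both antibodies from 23 to 715. The last counts come from 1 list on a side. The causes of these shifts were not tested beyond the lists left out.

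With lists cut to equal length, the regions numbered 1335, the YTHDF1-KO share was 21.2%, the width 1484 bp, the distance 3195 bp and the percentile 33.1. Without the lowest 25% of peaks, the regions numbered 622, the share was 30.4%, the width 1589 bp and the distance 3262.5 bp. Requiring at least 50% of a region to be covered gave 771 regions, with 18.7%, 1386 bp, 1712 bp, percentile 33.4 and 15 for both antibodies. Merging peaks within 1 kb gave 758 regions, with 18.7%, 1602 bp, 4663 bp and percentile 28.6. Regions without a WT peak within 5 kb numbered 288, with 20.5%, 1380.5 bp, 16383 bp, percentile 32.1 and 8 for both antibodies. Counting all gene types put 67.3% of the regions in a gene. An alternative added after seeing the data, both totals at or over the WT lists' smallest, left 27 regions, with 51.9%, 1826 bp, 3384 bp, 59.3% in protein-coding genes, percentile 62.8 and 1 for both antibodies. There the siARID1A excess with anti-YTHDF1 was 3.70 points (exact permutation p = 1). The cause was not tested.

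Without sequencing depth or signal outside peaks, a region without a peak cannot be told from a weaker one below a list's threshold. That bears most on the 577 regions whose totals lie under every WT peak.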
